A study of Mus musculus with 12 samples.

Results

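Stromal, smooth muscle and vascular markers are 43 genes that mark the connective tissue, muscle and vessels under the gut lining. They were chosen by gene symbol from a list of non-collagen markers of fibroblasts, extracellular matrix, smooth muscle, pericytes and endothelium, and all 43 are among the 55304 gene symbols counted here. By role, 8 mark fibroblasts, 15 are matrix or matrix-associated genes, 2 are cytoskeletal genes of many cell types, 9 mark smooth muscle, 4 mark mural cells (the pericytes and muscle cells around vessels) and 5 mark endothelium. Colonic epithelial RNA was sequenced from 12 mice of the C57BL/6 strain at 6 weeks of age, 1 library a mouse and 4 mice in each of 3 groups. The group labelled EHF IKO carried an intestinal knockout of Ehf, an epithelial transcription factor of the ETS family, and had received tamoxifen (source EVCER). Control-OIL mice were labelled wild-type (source EVCER-) and had received sunflower oil. Control-TMX mice were labelled wild-type, carried VilCreER, a Cre recombinase that tamoxifen activates under the Villin promoter of intestinal epithelium, and had received tamoxifen; the series text names them as a further control for the drug. The 2 control groups thus differed both in mouse line and in treatment, and these cannot be told apart between them. EHF IKO differed from Control-OIL in both knockout and drug, and from Control-TMX in both knockout and mouse line. Neither comparison therefore separates the knockout from the other difference.

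In the colon the epithelium rests on a basement membrane of laminins, collagen IV and nidogen. Below it the lamina propria holds fibroblasts that secrete decorin, lumican and fibronectin, thin bundles of smooth muscle built on alpha and gamma smooth muscle actin, myosin heavy chain 11 and desmin, and blood and lymph vessels wrapped by mural cells. The colon was incubated in an EDTA buffer and shaken to free the epithelium, with the smooth muscle removed, so that these cells are largely left behind by design and their transcripts are a minor part of the RNA. In bulk RNA, fewer cells of a type and less RNA per cell cannot be told apart. Gsn (gelsolin, which severs actin filaments), Mylk (myosin light chain kinase) and Prox1 are also known from epithelial cells, and Vim from immune cells, so that not all of the 43 are particular to the stroma.

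The markers took 0.0398% of all counts in Control-OIL replicate 1 (95% Wilson interval 0.0385% to 0.0411%) and 0.0762% in Control-TMX replicate 3 (0.0744% to 0.0781%), the lowest and highest of the 12 libraries, where the interval covers counting error only. Levels below are in CPM, counts scaled to a common library size with TMM factors, which correct library totals for composition. Per kilobase of exon, the median level was 2.02 CPM for the smooth muscle markers, 1.353 for the matrix markers, 0.524 for the mural cell markers, 0.397 for the fibroblast markers and 0.337 for the endothelial markers. The same quantity was 283 CPM per kilobase for 14 epithelial genes and 0.238 for 17 immune cell genes. No member was at 0 in all libraries, and the rarest, Rspo3, a fibroblast ligand that enhances Wnt signalling, had at most 2 counts in a library and none in 5 of them. The tissue label therefore met its epithelial markers above every one of the 43 markers: the lowest epithelial gene was at 72.7 CPM per kilobase and the highest marker, Gsn, at 67.9, followed by Fn1 at 6.10.

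**Figure D1:**
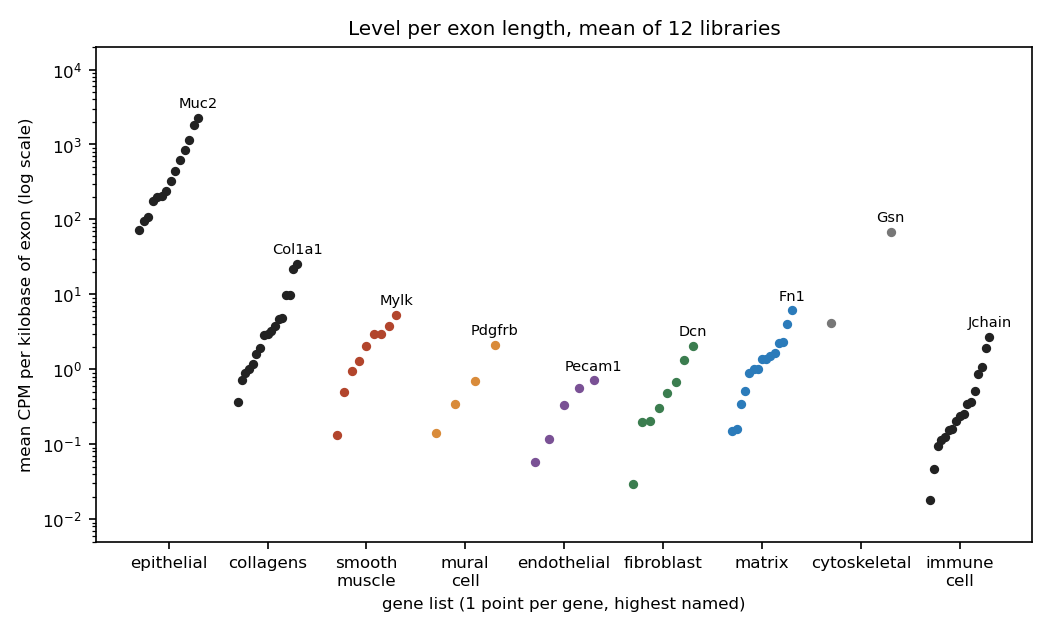
Mean level over the 12 libraries in CPM per kilobase of exon (vertical axis, log scale), with 1 point per gene in each gene list (horizontal axis) and the highest gene of each list named. The epithelial genes lie between 72.7 and 2258, and the endothelial markers between 0.0574 and 0.708.

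Library totals ranged from 7421411 to 10344161 counts with a median of 8138352. Ehf itself was counted over the whole gene at 341 ± 30.1 CPM (SD, n = 4) in EHF IKO, against 345 ± 21.0 for Control-TMX and 428 ± 46.4 for Control-OIL, and in EHF IKO the log2 fold change was -0.33 ± 0.11 (SE) against Control-OIL (adjusted p = 0.159, edgeR's quasi-likelihood test) and -0.02 ± 0.11 against Control-TMX (adjusted p = 0.972). Which exons were deleted is not stated in the labels, so the whole-gene count does not check the knockout labels. EHF IKO replicate 2 stood apart, with 36109 genes with a count against 23588 to 25966 in the other libraries. It also had 10.3% of its counts in 7 genes that were picked for a high share of counts in 1 library. Mitochondrial genes took 10.7% to 26.3% of counts, with overlapping ranges in the 3 groups.

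Summed over the 43 markers, the level was lowest in all 4 Control-OIL libraries. The sums were 475, 511, 473 and 456 CPM in Control-OIL replicates 1 to 4, 698, 657, 700.0 and 603 CPM in Control-TMX, and 690.0, 597, 744 and 542 CPM in EHF IKO. No Control-OIL library reached the lowest library of either other group, while the Control-TMX and EHF IKO libraries overlapped, with means of 665 ± 45.5 and 643 ± 91.0 CPM (SD, n = 4) against 479 ± 23.3 CPM. The separation of EHF IKO from Control-OIL rests, for its replicate 4, on the scaling and on a few genes, whereas Control-TMX lay above Control-OIL without either. As raw shares of counts, EHF IKO replicate 4 (0.0497%) fell inside the Control-OIL range, which ended at 0.0558% in replicate 4, and the lowest Control-TMX library was at 0.0589%. Gsn, Fn1 and Mylk made up most of the sum, with Gsn alone at 36.0%, and without these 3 (a sum chosen after the data were seen) the Control-OIL libraries spanned 162 to 212 CPM, Control-TMX 262 to 308 and EHF IKO 196 (replicate 4) to 359.

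Of the 43 markers, 35 had enough counts to be tested. The 8 that did not were Thy1, Grem1 and Rspo3 of the fibroblast markers, Mfap4 and Mfap5 of the matrix, Lmod1 of smooth muscle, Notch3 of mural cells and Cdh5 of endothelium. A gene could pass through a single group in which it was high, so counts over the 35 do not speak for all 43. Control-OIL had the lowest mean for 29 of the 35, EHF IKO for 4 and Control-TMX for 2. The most frequent order of the group means was Control-OIL, Control-TMX, EHF IKO from low to high (17 markers), followed by Control-OIL, EHF IKO, Control-TMX (12 markers). The lowest group and the order of means were not counted over all genes, so they are not shown to be particular to the markers.

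**Figure D2:**
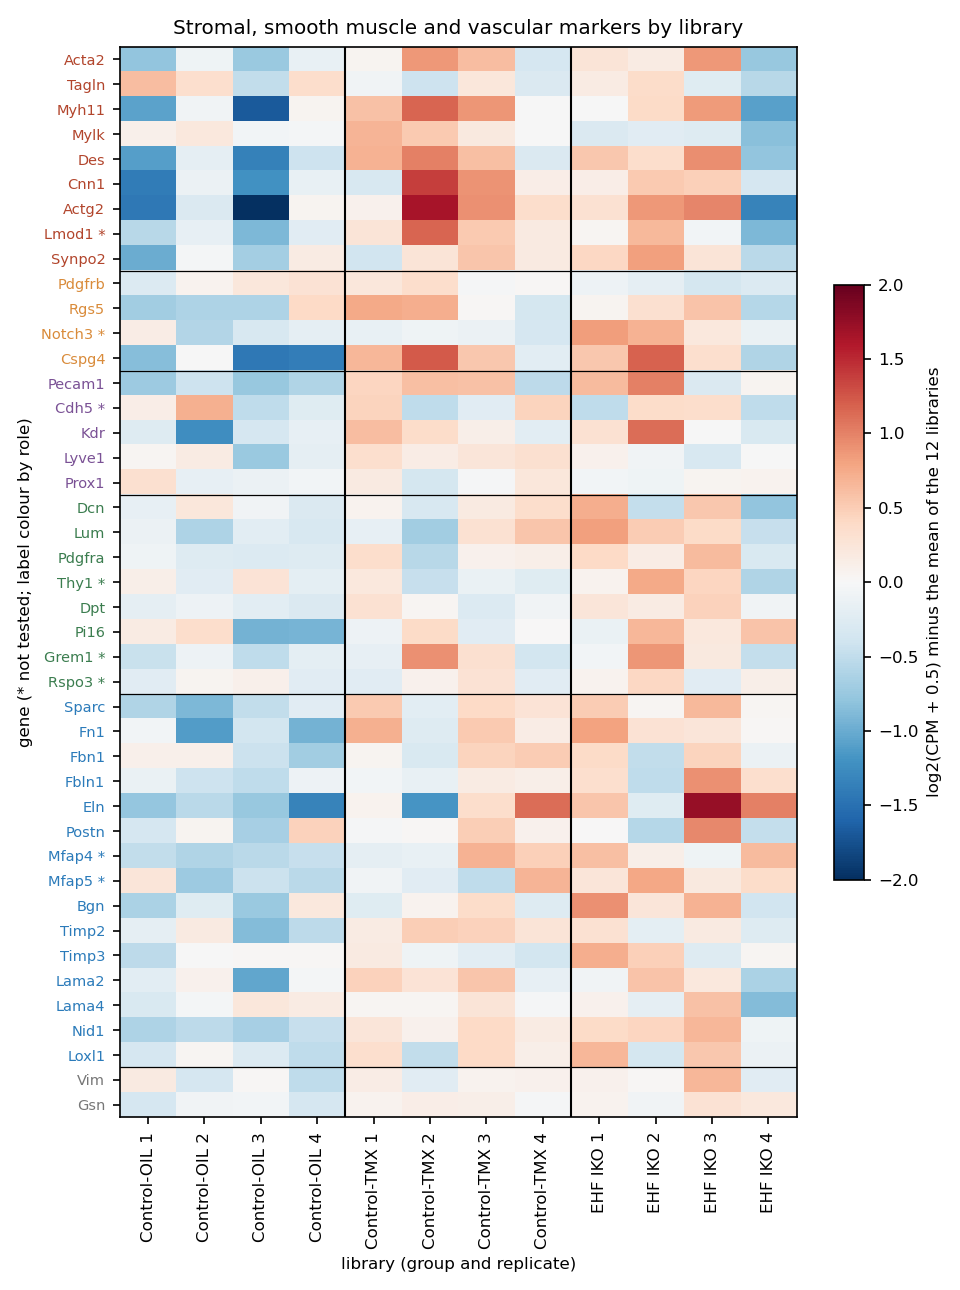
Level of each of the 43 markers (rows, grouped and coloured by role, an asterisk for those not tested) in each of the 12 libraries (columns), as log2(CPM + 0.5) minus the gene's mean over the libraries. Control-OIL replicates 1 and 3 are low for most smooth muscle markers, as is EHF IKO replicate 4, while Eln reaches its highest level in EHF IKO replicate 3.

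In EHF IKO against Control-OIL, 30 of the 35 tested markers had a higher fitted level and 5 a lower one, with a median log2 fold change of 0.57 against -0.01 over all genes tested. At an adjusted p under 0.05 in edgeR's quasi-likelihood test, 2 markers rose, the matrix genes Sparc and Nid1, beside 0.921% of all 15743 genes called higher. No marker was called lower, beside 0.762% of all genes. At an unadjusted p under 0.05, 14 were higher, beside 6.85% of all genes, and 2 lower, a share near the 5.07% of all genes. DESeq2 called 6 markers higher (Sparc, Fn1, Eln, Nid1, Cspg4 and Pecam1) and limma-voom 1 (Nid1), where they called 3.39% and 1.41% of all genes in either direction, and both called 0 markers lower. All 4 EHF IKO libraries lay above all 4 Control-OIL libraries for 6 tested markers (Dpt, Sparc, Fn1, Eln, Nid1 and Pecam1), where 3.25% of all genes did so, and below them for 1 (Mylk), where 3.29% did. On raw library totals, without the TMM factors, 2 markers (Fn1 and Eln) lay above and none below. The share of all genes that did so on raw totals was not counted.

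In EHF IKO against Control-TMX, both groups had received tamoxifen but differed in mouse line as well as in the knockout. Here 19 markers had a higher and 16 a lower fitted level, and the median log2 fold change was 0.05 against 0.02 over all genes tested. Mylk fell at an adjusted p under 0.05 in edgeR's quasi-likelihood test and was the only one of the 35 called, beside 0.47% of all genes called lower and 0.33% called higher. At an unadjusted p under 0.05 no marker was higher, beside 5.6% of all genes, and 2 were lower, a share near the 6.27% of all genes. DESeq2 called 0 markers higher and 1 lower and limma-voom 0 in either direction, where they called 1.94% and 0.673% of all genes. For 3 markers (Mylk, Pdgfrb and Lyve1) all EHF IKO libraries lay below all Control-TMX libraries, against 3.87% of all genes, and for none did they all lie above, against 3.32% of all genes. On raw library totals, without the TMM factors, 1 marker (Mylk) lay below and none above, and the share of all genes was not counted.

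Between the 2 controls, 33 of the 35 markers had a higher fitted level in Control-TMX, and the median log2 fold change was 0.51 against -0.01 over all genes tested. edgeR's quasi-likelihood test called none of them higher or lower, beside 0.0381% and 0.0445% of all genes. At an unadjusted p under 0.05, 13 were higher and none lower, beside 6.65% and 6.23% of all genes. DESeq2 called 5 higher (Sparc, Fn1, Nid1, Des and Cspg4) and limma-voom 0, where they called 1.25% and 0.0508% of all genes in either direction, and both called 0 markers lower. All Control-TMX libraries lay above all Control-OIL libraries for 4 markers (Sparc, Nid1, Gsn and Actg2), where 3.68% of all genes did so, and below for none, where 3.2% did. On raw library totals 2 markers (Fn1 and Nid1) lay above and none below, and here too the share of all genes was not counted. The 3 comparisons use the same 3 groups of libraries, and Control-OIL serves in both comparisons in which most markers were higher.

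**Figure D3:**
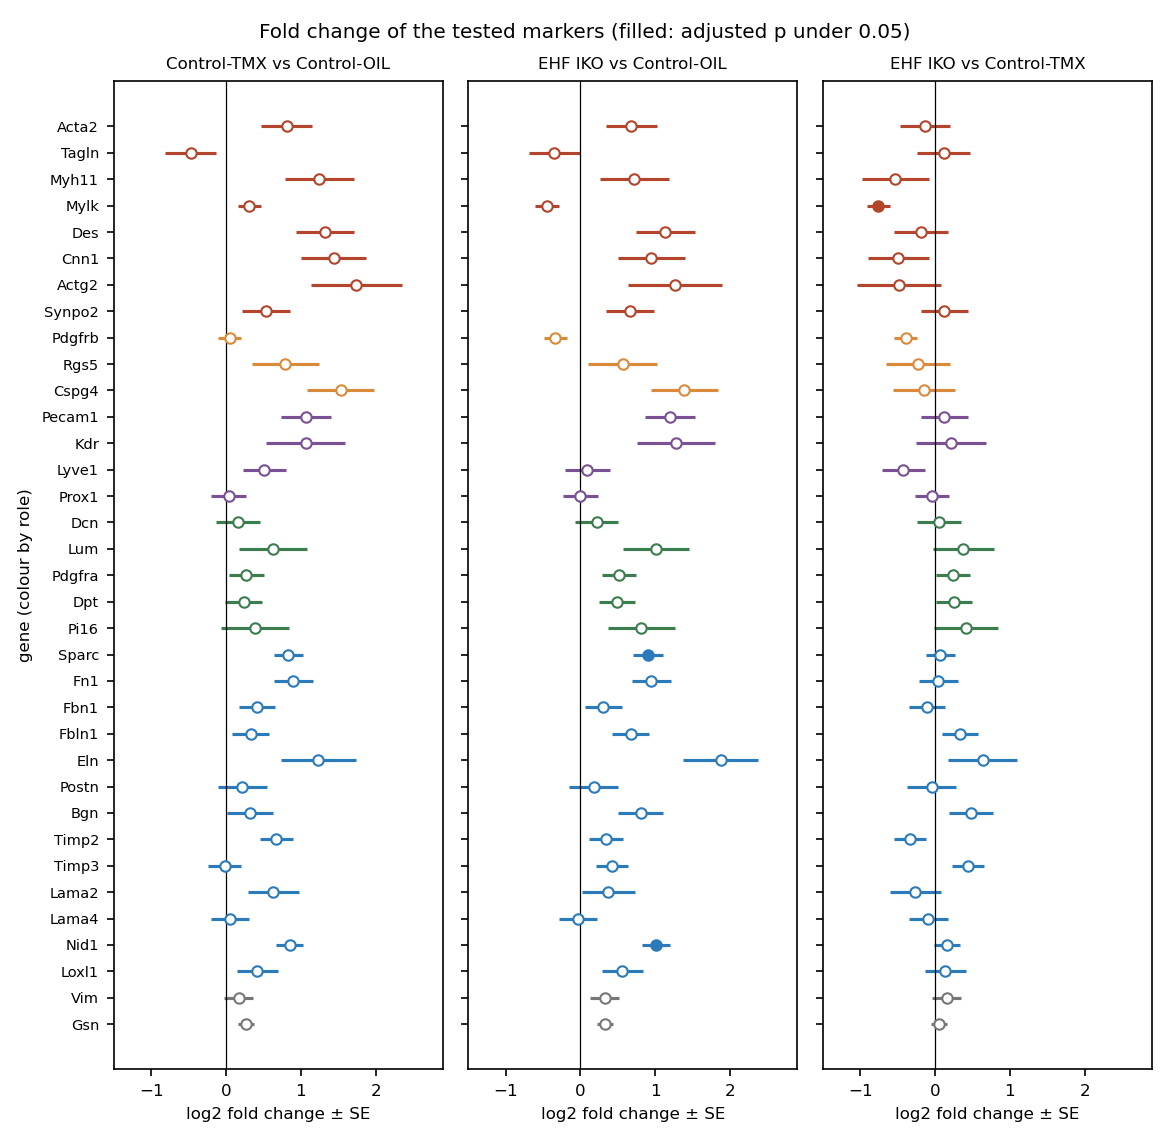
Log2 fold change (horizontal axis, with bars for the standard error) of the 35 tested markers (vertical axis, coloured by role) in each of the 3 comparisons, with filled points for an adjusted p under 0.05. Most points lie to the right of 0 against Control-OIL and around 0 in EHF IKO against Control-TMX, where Mylk is the filled point.

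The smooth muscle markers had their highest mean summed level in Control-TMX. Mylk, which is also known from epithelial cells, made up 52.0% of the sum over all libraries. The order of the sums therefore leans on that gene, and a sum without it was not taken. The 9 genes summed to 85.4, 111.8, 73.9 and 103 CPM in Control-OIL, to 152.5, 185, 149 and 104 CPM in Control-TMX, and to 104, 117, 131 and 57.0 CPM in EHF IKO. Control-TMX replicate 4 lay among the Control-OIL libraries and EHF IKO replicate 4 below all others, so all 3 groups overlapped. Of the 8 tested, 7 had a higher fitted level in Control-TMX than in Control-OIL with a median log2 fold change of 1.03, 6 were higher in EHF IKO than in Control-OIL with a median of 0.70, and 6 were lower in EHF IKO than in Control-TMX with a median of -0.34. EHF IKO replicate 4 was the lowest EHF IKO library for all 8.

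**Figure D4:**
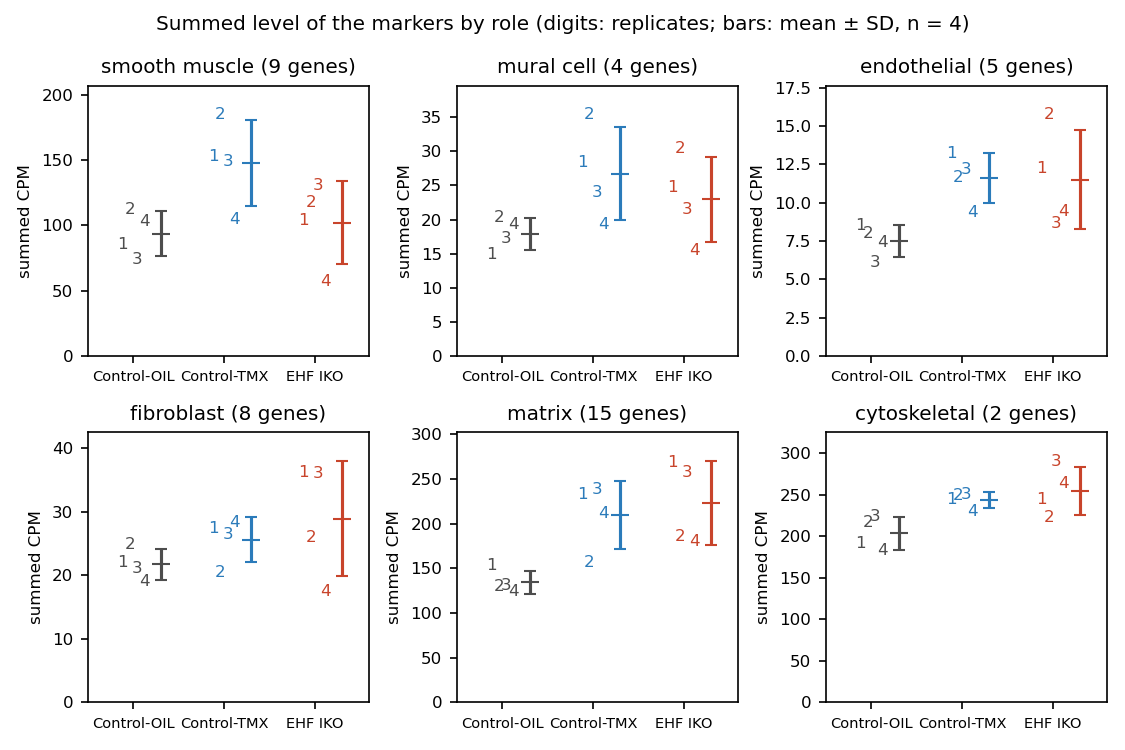
Summed CPM (vertical axes, from 0) of the markers of each role in the 3 groups, with digits for replicates 1 to 4 and bars for mean ± SD. Smooth muscle sums, of which Mylk makes up 52.0%, have their highest mean in Control-TMX. Matrix sums are higher in every Control-TMX and EHF IKO library than in the Control-OIL libraries, whose mean is 134 CPM.

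Mylk (ENSMUSG00000022836, chromosome 16, 34745210 to 35002420 on GRCm38, plus strand) phosphorylates the myosin light chain and so starts contraction in smooth muscle. Its level was 61.8, 66.6, 55.5 and 55.8 CPM in Control-OIL, 92.0, 82.6, 66.2 and 57.4 CPM in Control-TMX, and 47.2, 49.1, 47.8 and 31.8 CPM in EHF IKO. Every EHF IKO library lay below every library of both control groups, and EHF IKO replicate 4 lay apart at the bottom. On raw library totals EHF IKO lay wholly below Control-TMX but overlapped Control-OIL. The log2 fold change in EHF IKO was -0.76 ± 0.16 (SE) against Control-TMX (adjusted p = 0.0337, edgeR's quasi-likelihood test) and -0.45 ± 0.16 against Control-OIL (adjusted p = 0.206). The call against Control-TMX was lost without Control-TMX replicate 1, 2 or 3 (adjusted p = 0.110, 0.137 and 0.0532) or EHF IKO replicate 1, 2 or 3 (0.0702, 0.0584 and 0.0786), while the log2 fold change stayed between -0.63 and -0.87 over all fits that left out 1 library. It was also lost with limma-voom (adjusted p = 0.0504) and in a fit of these 2 groups alone (0.0709).

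The contractile markers Myh11, Acta2, Actg2, Cnn1 and Des followed another order, and edgeR's quasi-likelihood test on the 12 libraries called none of them in any comparison. Between the controls, Des passed with DESeq2 (adjusted p = 0.035), and with no filter on low counts edgeR called Acta2 (0.0151), Cnn1 (0.000212) and Des (6.57e-06). These 2 settings called 1.25% and 1.07% of all genes between the controls, against 0.0826% in the main fit. Against Control-OIL, Des in EHF IKO passed with no filter (0.000401) and without EHF IKO replicate 4 (0.0303). Myh11, the smooth muscle myosin heavy chain, was at 8.80, 18.2, 5.61 and 19.9 CPM in Control-OIL, 28.7, 43.4, 35.4 and 19.0 CPM in Control-TMX, and 18.9, 25.1, 34.7 and 8.73 CPM in EHF IKO. Control-TMX replicate 4 and EHF IKO replicates 1 and 4 lay below the highest Control-OIL library, so that the groups overlapped. Its log2 fold change was 1.25 ± 0.46 in Control-TMX against Control-OIL (adjusted p = 0.304, edgeR's quasi-likelihood test), 0.72 ± 0.46 in EHF IKO against Control-OIL (0.620) and -0.53 ± 0.44 in EHF IKO against Control-TMX (0.699). Acta2, alpha smooth muscle actin, was at 4.19, 7.08, 4.33 and 6.81 CPM in Control-OIL, 7.92, 14.2, 11.9 and 5.89 CPM in Control-TMX, and 9.20, 8.56, 14.2 and 4.30 CPM in EHF IKO. In both tamoxifen-treated groups replicate 4 alone lay within the Control-OIL range.

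Actg2, gamma smooth muscle actin of visceral muscle, showed the widest range of the tested markers, 31.4-fold between its lowest and highest library. It was at 0.978, 2.77, 0.382 and 3.65 CPM in Control-OIL, 3.73, 11.99, 6.99 and 4.58 CPM in Control-TMX, and 4.43, 6.76, 7.32 and 1.08 CPM in EHF IKO. Every Control-TMX library was above every Control-OIL library (log2 fold change 1.74 ± 0.61, adjusted p = 0.287, edgeR's quasi-likelihood test), the largest fitted rise of a marker between these groups, and it rested on as few as 3 counts in a library. On raw library totals these groups overlapped for Actg2. Acta2 and Actg2 are close in sequence and were measured by uniquely mapped reads alone. Des (desmin, the muscle intermediate filament) had 2.80, 5.75, 2.29 and 4.84 CPM in Control-OIL, 11.03, 13.7, 10.3 and 5.33 CPM in Control-TMX, and 9.78, 8.56, 13.0 and 3.63 CPM in EHF IKO, again with replicate 4 of both tamoxifen-treated groups within the Control-OIL range. Cnn1 (calponin, an actin-binding regulator of contraction) averaged 1.82 ± 1.04, 5.10 ± 2.84 and 3.65 ± 1.05 CPM (SD, n = 4) in Control-OIL, Control-TMX and EHF IKO, and Synpo2, an actin-bundling protein, averaged 4.76 ± 1.89, 6.96 ± 1.89 and 7.66 ± 2.89 CPM.

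Tagln (transgelin, an actin-binding protein of smooth muscle) went against the other contractile markers. It was at 3.07, 2.43, 1.15 and 2.47 CPM in Control-OIL, 1.71, 1.24, 2.22 and 1.40 CPM in Control-TMX, and 2.10, 2.48, 1.46 and 1.08 CPM in EHF IKO. The groups overlapped, and the log2 fold change was -0.47 ± 0.34 in Control-TMX against Control-OIL (adjusted p = 0.589, edgeR's quasi-likelihood test). Of its exon bases, 67.9% also lie in exons of Pcsk7 and Gm48529 on the other strand. The counting ignored strand and dropped any read that fell in more than 1 gene, so Tagln was measured by the remaining stretch; the part of this in its order was not tested. Lmod1, a leiomodin that nucleates actin filaments, was not tested, with 7 counts over the Control-OIL libraries, 31 over Control-TMX and 14 over EHF IKO.

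Smooth muscle genes share a known promoter element, the CArG box (CC, 6 bases of A or T, GG), bound by serum response factor. The RefSeq promoter windows on GRCm38.p6, 250 bases before to 50 after a start site, were found for 26 of the 43 markers (31 windows). An exact CArG box, which reads the same in form on both strands, was in 1 of the 31 windows (3.23%), that of Lama2, and in 1.63% of all 32851 windows. With 1 of the 6 middle bases allowed to be G or C, a form chosen after the data were seen, it was in 5 of the 31 (16.1%: Acta2, Gsn, Kdr, Lama2 and Timp3) and in 9.98% of all windows. The 250 bases before the start are shown for 3 smooth muscle markers whose mean was highest in Control-TMX and for Lama2, with every match of either form in capitals. They lie at chr19:34255374-34255623 (minus strand), chr1:75360042-75360291 (plus strand), chr9:22099003-22099252 (plus strand) and chr10:27616943-27617192 (minus strand). The RefSeq start sites differ from the outer ends of the genes as counted here. On the minus strand the counted Lama2 begins at 27619758 and Acta2 at 34255590. All of the Lama2 stretch and most of the Acta2 stretch thus lie inside the counted gene. Cnn1 is counted from 22099216, within its stretch.
Acta2: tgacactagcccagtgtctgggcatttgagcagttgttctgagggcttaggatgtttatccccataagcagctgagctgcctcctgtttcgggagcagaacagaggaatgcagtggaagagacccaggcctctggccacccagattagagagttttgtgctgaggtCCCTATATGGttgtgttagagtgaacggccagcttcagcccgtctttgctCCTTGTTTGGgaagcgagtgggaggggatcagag
Des: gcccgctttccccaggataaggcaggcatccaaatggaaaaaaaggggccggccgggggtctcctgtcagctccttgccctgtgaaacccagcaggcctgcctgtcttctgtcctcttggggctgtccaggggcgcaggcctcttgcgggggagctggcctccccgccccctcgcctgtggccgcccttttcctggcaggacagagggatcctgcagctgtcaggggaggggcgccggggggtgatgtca
Cnn1: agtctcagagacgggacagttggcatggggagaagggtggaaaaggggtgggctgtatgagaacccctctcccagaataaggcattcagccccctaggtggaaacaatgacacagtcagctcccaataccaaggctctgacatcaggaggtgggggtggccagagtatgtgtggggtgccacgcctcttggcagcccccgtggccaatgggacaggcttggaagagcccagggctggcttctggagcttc
Lama2: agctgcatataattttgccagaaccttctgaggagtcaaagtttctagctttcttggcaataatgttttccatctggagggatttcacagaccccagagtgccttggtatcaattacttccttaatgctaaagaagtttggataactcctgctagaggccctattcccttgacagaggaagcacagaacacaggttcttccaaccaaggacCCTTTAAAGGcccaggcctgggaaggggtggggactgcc
The Acta2 matches start 84 and 34 bases before the start site and both have 1 G or C in the middle, and the exact Lama2 match starts 39 bases before it. The windows of Des and Cnn1 held neither form, which says only that these letters are not in this stretch. Des and Cnn1 had the same order of group means as Acta2, and the match is a description of the sequence alone.

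Among the mural cell markers, Cspg4 and Pdgfrb differed in direction. Cspg4, the NG2 proteoglycan of pericytes, was at 3.63, 6.97, 2.29 and 2.37 CPM in Control-OIL, 11.3, 17.1, 10.4 and 5.98 CPM in Control-TMX, and 10.4, 16.4, 8.91 and 4.43 CPM in EHF IKO. Replicate 2 was the highest library of each group, and replicate 4 of the tamoxifen-treated groups fell below Control-OIL replicate 2, so the groups overlapped. The log2 fold change against Control-OIL was 1.53 ± 0.44 in Control-TMX (adjusted p = 0.219, edgeR's quasi-likelihood test) and 1.39 ± 0.45 in EHF IKO (0.174). With the sex of the mice in the fit, both passed (adjusted p = 0.0360 and 0.0228), as they did with DESeq2 (0.0226 and 0.0304).

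Pdgfrb , the receptor for platelet-derived growth factor on mural cells and fibroblasts, was at 9.22, 11.95, 13.4 and 13.9 CPM in Control-OIL, 13.4, 14.6, 11.1 and 11.5 CPM in Control-TMX, and 10.5, 9.94, 8.78 and 9.27 CPM in EHF IKO. All EHF IKO libraries lay below all Control-TMX libraries, and overlapped Control-OIL through its replicate 1 only. On raw library totals the EHF IKO and Control-TMX libraries overlapped. Neither difference passed, with log2 fold changes of -0.39 ± 0.15 against Control-TMX (adjusted p = 0.329, edgeR's quasi-likelihood test) and -0.34 ± 0.15 against Control-OIL (0.404). Rgs5, a pericyte regulator of G-protein signalling, was at 0.699, 0.775, 0.764 and 2.07 CPM in Control-OIL, 2.80, 2.72, 1.48 and 1.03 CPM in Control-TMX, and 1.51, 1.93, 2.40 and 0.806 CPM in EHF IKO. Control-OIL replicate 4 stood apart from the other 3 of its group, and all groups overlapped at 5 to 22 counts a library. Notch3, a receptor of arterial muscle and pericytes, was not tested, with 29, 31 and 52 counts over the Control-OIL, Control-TMX and EHF IKO libraries.

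Of the endothelial markers, Pecam1 and Kdr had their lowest means in Control-OIL, whereas Lyve1 and Prox1 of lymphatic endothelium were at similar means in Control-OIL and EHF IKO. Pecam1 (CD31, an adhesion molecule at endothelial junctions) was at 2.24, 2.88, 2.17 and 2.47 CPM in Control-OIL, 5.59, 6.30, 6.25 and 2.62 CPM in Control-TMX, and 6.52, 8.56, 3.19 and 4.16 CPM in EHF IKO. All EHF IKO libraries were above Control-OIL, and 3 of 4 Control-TMX libraries were. On raw library totals EHF IKO overlapped Control-OIL for Pecam1. The log2 fold change against Control-OIL was 1.19 ± 0.33 in EHF IKO (adjusted p = 0.0923, edgeR's quasi-likelihood test) and 1.07 ± 0.33 in Control-TMX (0.241). In EHF IKO, Pecam1 passed with DESeq2 (adjusted p = 0.0278) and in edgeR with no filter (0.00254). In Control-TMX it passed with no filter (0.0106). Kdr, the main receptor for vascular endothelial growth factor, averaged 0.559 ± 0.306, 1.22 ± 0.411 and 1.38 ± 0.867 CPM (SD, n = 4) over the oil-treated control, tamoxifen-treated control and knockout mice, with 1 count in Control-OIL replicate 2. Neither difference from Control-OIL passed for Kdr (adjusted p = 0.412 in Control-TMX and 0.313 in EHF IKO, edgeR).

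Lyve1, the hyaluronan receptor of lymphatic endothelium, was at 1.68, 1.88, 0.764 and 1.38 CPM in Control-OIL, 2.18, 1.85, 2.01 and 2.15 CPM in Control-TMX, and 1.75, 1.52, 1.20 and 1.61 CPM in EHF IKO. Every EHF IKO library was below every Control-TMX library, with a log2 fold change of -0.42 ± 0.29 (adjusted p = 0.610, edgeR's quasi-likelihood test). On raw library totals these 2 groups overlapped for Lyve1. Prox1, the transcription factor that sets lymphatic identity and that enteroendocrine cells also express, was at 3.63, 2.43, 2.55 and 2.67 CPM in Control-OIL, 3.26, 2.10, 2.75 and 3.37 CPM in Control-TMX, and 2.68, 2.62, 2.93 and 2.96 CPM in EHF IKO. Its group means of 2.82, 2.87 and 2.80 CPM differed by less than the SD in each group. Cdh5, the endothelial cadherin, was not tested, with 9, 9 and 6 counts over the 3 groups and none in 4 libraries.

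**Figure D5:**
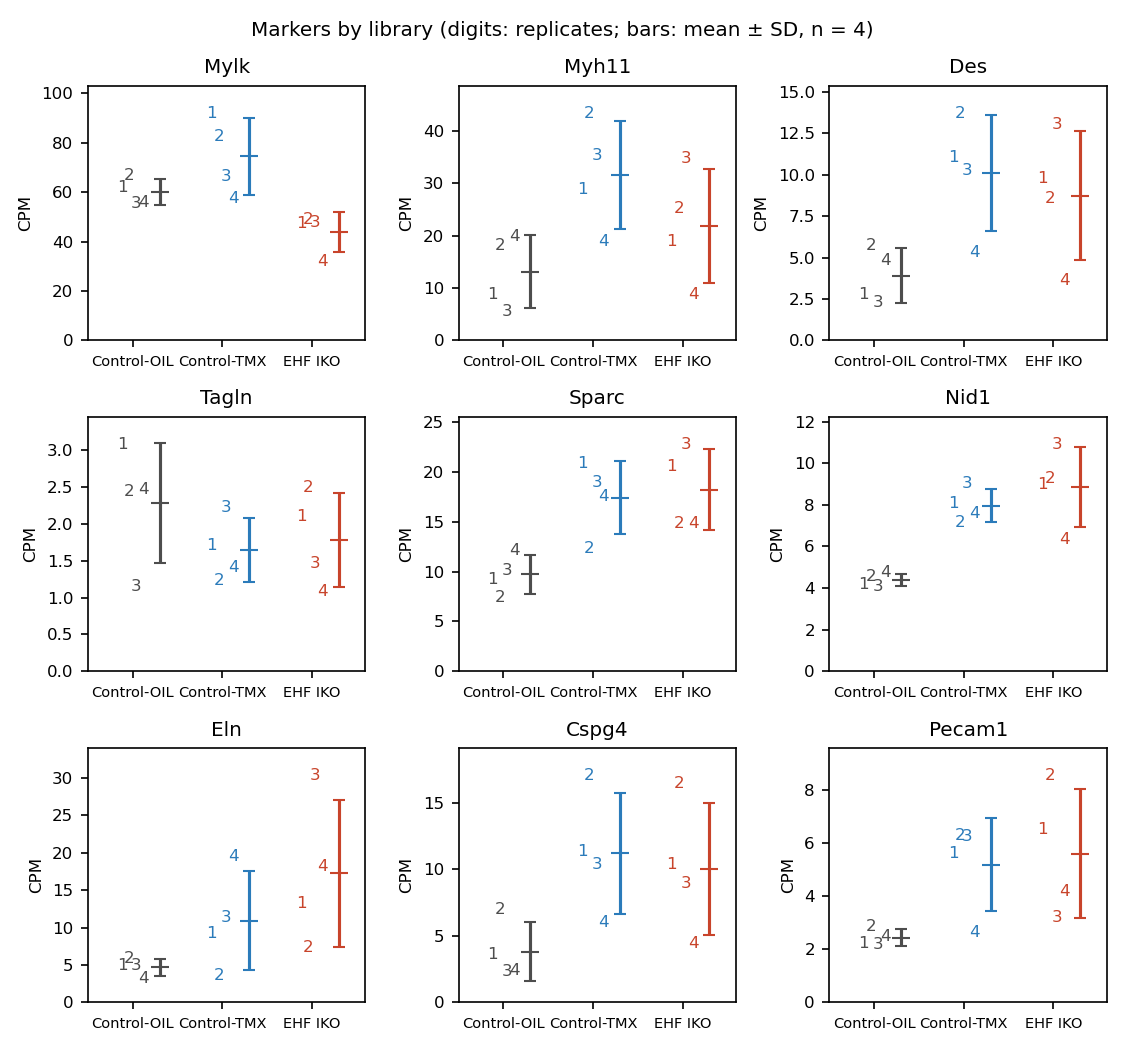
CPM (vertical axes, from 0) of 9 markers in the 3 groups, with digits for replicates 1 to 4 and bars for mean ± SD. Mylk is lowest in all 4 EHF IKO libraries, and Nid1 and Sparc are lowest in Control-OIL. Replicate 4 is the lowest library of Control-TMX and of EHF IKO for Mylk, Myh11, Des and Cspg4. For Eln, replicate 4 is the highest library of Control-TMX.

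Among the fibroblast markers edgeR's quasi-likelihood test called none, and the groups overlapped for all tested but Dpt. Their 8 genes summed to 21.7 ± 2.42, 25.6 ± 3.51 and 28.9 ± 9.02 CPM (SD, n = 4) in Control-OIL, Control-TMX and EHF IKO. All 5 tested had a higher fitted level in EHF IKO than in either control, with median log2 fold changes of 0.52 against Control-OIL and 0.25 against Control-TMX. Dcn (decorin, a proteoglycan that binds collagen fibrils) was the most abundant in CPM, at 10.2, 13.6, 10.96 and 9.28 in Control-OIL, 12.1, 9.15, 13.1 and 14.8 in Control-TMX, and 19.5, 8.14, 16.9 and 6.45 in EHF IKO. The EHF IKO libraries held both the highest and the lowest values, and the log2 fold change against Control-OIL was 0.22 ± 0.29 (adjusted p = 0.871, edgeR's quasi-likelihood test).

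Pdgfra, the platelet-derived growth factor receptor of fibroblasts, was at 6.15, 5.42, 5.35 and 5.43 CPM in Control-OIL, 8.54, 4.33, 6.99 and 7.20 CPM in Control-TMX, and 8.85, 7.32, 10.5 and 5.24 CPM in EHF IKO. EHF IKO replicate 4 lay below all Control-OIL libraries and the other 3 above them, with a log2 fold change of 0.52 ± 0.23 (adjusted p = 0.377, edgeR's quasi-likelihood test). Dpt (dermatopontin, which assists collagen fibril assembly) was at 1.96, 2.10, 1.91 and 1.78 CPM in Control-OIL, 2.95, 2.35, 1.80 and 2.15 CPM in Control-TMX, and 2.80, 2.62, 3.33 and 2.15 CPM in EHF IKO. EHF IKO lay wholly above Control-OIL, by 0.49 ± 0.24 on the log2 scale (adjusted p = 0.454, edgeR), on 14 to 25 counts a library. On raw library totals these groups overlapped for Dpt. Lum (lumican, a fibril-binding proteoglycan) averaged 0.803 ± 0.184, 1.20 ± 0.605 and 1.598 ± 0.691 CPM and Pi16, a marker of adventitial fibroblasts, averaged 0.959 ± 0.667, 1.25 ± 0.340 and 1.68 ± 0.528 CPM in the same order. Of the 3 not tested, Thy1 had 29, 25 and 34 counts over the groups, Grem1, a secreted inhibitor of bone morphogenetic proteins, had 18, 34 and 29, and Rspo3 had 2, 3 and 4.

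The matrix markers held both calls against Control-OIL. Their summed level was 134 ± 12.8 CPM (SD, n = 4) in Control-OIL, while the single libraries had 233, 156, 238 and 212 CPM in Control-TMX, and 269, 185, 257 and 179.5 CPM in EHF IKO, so that every library of the tamoxifen-treated groups was above every Control-OIL library, though Control-TMX replicate 2 lay close to the highest of them, replicate 1. Of 13 tested, 12 had a higher fitted level in EHF IKO than in Control-OIL and 12 in Control-TMX than in Control-OIL, with median log2 fold changes of 0.56 and 0.42, and 8 were higher and 5 lower in EHF IKO than in Control-TMX with a median of 0.07.

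Nid1 (ENSMUSG00000005397, chromosome 13, 13437551 to 13512269 on GRCm38, plus strand) encodes nidogen 1, which links laminin to collagen IV in basement membranes. It was at 4.19, 4.54, 4.08 and 4.74 CPM in Control-OIL, 8.08, 7.17, 9.003 and 7.57 CPM in Control-TMX, and 8.97, 9.25, 10.9 and 6.31 CPM in EHF IKO. Both tamoxifen-treated groups lay wholly above Control-OIL and overlapped each other. On raw library totals Control-TMX still lay wholly above Control-OIL, but EHF IKO overlapped it. The log2 fold change was 1.01 ± 0.18 in EHF IKO against Control-OIL (adjusted p = 0.0112, edgeR's quasi-likelihood test), 0.85 ± 0.18 in Control-TMX against Control-OIL (0.114) and 0.15 ± 0.17 in EHF IKO against Control-TMX (0.785). Without EHF IKO replicate 3 the first became 0.89 with an adjusted p of 0.0502, and in the male mice alone (added after the data were seen) it was 0.96 (0.180). Without EHF IKO replicate 4 Control-TMX passed against Control-OIL (0.0308).

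Sparc (ENSMUSG00000018593, chromosome 11, 55394500 to 55423183 on GRCm38, minus strand) encodes osteonectin, a secreted glycoprotein that binds collagen and calcium. It was at 9.22, 7.41, 10.1 and 12.1 CPM in Control-OIL, 20.8, 12.4, 19.0 and 17.5 CPM in Control-TMX, and 20.5, 14.8, 22.8 and 14.8 CPM in EHF IKO. Again no Control-OIL library reached the other groups, though Control-TMX replicate 2 came close to Control-OIL replicate 4. On raw library totals both of these groups overlapped Control-OIL for Sparc. The log2 fold change was 0.90 ± 0.20 in EHF IKO against Control-OIL (adjusted p = 0.0312, edgeR's quasi-likelihood test), 0.84 ± 0.20 in Control-TMX against Control-OIL (0.140) and 0.07 ± 0.19 in EHF IKO against Control-TMX (0.930). The call was lost without Control-OIL replicate 1, 2 or 3 (adjusted p = 0.0768, 0.0792 and 0.0766) or EHF IKO replicate 1 or 3 (0.103 and 0.121), with limma-voom (0.0523), in a fit of these 2 groups alone (0.0574) and in the male mice alone (0.165).

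Fn1 (fibronectin, which ties cells to the matrix through integrins) was the most abundant matrix marker per kilobase. It was at 63.4, 30.1, 51.2 and 34.1 CPM in Control-OIL, 109.2, 55.5, 95.1 and 73.7 CPM in Control-TMX, and 116, 81.3, 78.5 and 67.6 CPM in EHF IKO. EHF IKO lay wholly above Control-OIL (log2 fold change 0.95 ± 0.26, adjusted p = 0.105, edgeR's quasi-likelihood test), and in Control-TMX (0.90 ± 0.26, 0.228) replicate 2 did not. On raw library totals both groups lay wholly above Control-OIL for Fn1. In EHF IKO against Control-OIL, Fn1 passed with DESeq2 (adjusted p = 0.0122) and in edgeR with a replicate block (0.00696). In Control-TMX against Control-OIL it passed in the same settings (0.0380 and 0.0377). Eln (elastin, the core of elastic fibres) had the largest fitted rise of a marker against Control-OIL and the widest range of the tested matrix markers. It was at 4.89, 5.87, 4.97 and 3.16 CPM in Control-OIL, 9.16, 3.58, 11.3 and 19.5 CPM in Control-TMX, and 13.2, 7.32, 30.3 and 18.1 CPM in EHF IKO. Every EHF IKO library exceeded every Control-OIL library (log2 fold change 1.87 ± 0.50, adjusted p = 0.0943, edgeR), whereas Control-TMX replicate 2 lay within Control-OIL. With DESeq2, Eln passed in EHF IKO against Control-OIL (adjusted p = 0.0211).

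Fbn1 (fibrillin 1, of microfibrils) was at 29.3, 29.2, 20.1 and 16.7 CPM in Control-OIL, 28.3, 22.0, 37.2 and 39.1 CPM in Control-TMX, and 35.8, 19.3, 37.3 and 25.3 CPM in EHF IKO, with overlapping groups. Exons of Gm9913 on the other strand cover 20.1% of its exon bases. Bgn (biglycan, a small proteoglycan) was at 3.07, 4.21, 2.80 and 5.92 CPM in Control-OIL, 4.19, 5.31, 6.67 and 4.11 CPM in Control-TMX, and 9.90, 6.07, 8.51 and 3.76 CPM in EHF IKO. In EHF IKO 3 of 4 libraries lay above all of Control-OIL and replicate 4 among them (log2 fold change 0.80 ± 0.30, adjusted p = 0.254, edgeR's quasi-likelihood test). Timp3, an inhibitor of matrix proteases, was at 7.41, 10.8, 11.1 and 11.1 CPM in Control-OIL, 12.4, 10.3, 9.32 and 8.32 CPM in Control-TMX, and 18.4, 15.5, 9.05 and 11.3 CPM in EHF IKO. EHF IKO replicates 1 and 2 were the highest of the 12 libraries, the groups overlapped, and 21.3% of its exon bases are shared with Syn3.

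edgeR's quasi-likelihood test called none of the other tested matrix markers, and their groups overlapped. Fbln1 (fibulin 1, of basement membranes and elastic fibres) averaged 5.63 ± 0.853, 7.07 ± 0.772 and 8.96 ± 3.57 CPM (SD, n = 4) in Control-OIL, Control-TMX and EHF IKO, and Loxl1, which cross-links elastin, averaged 3.87 ± 0.721, 5.19 ± 1.42 and 5.69 ± 2.06 CPM. Timp2, a further protease inhibitor, was highest in Control-TMX (10.7 ± 1.22 CPM, against 6.69 ± 2.24 in Control-OIL and 8.46 ± 1.72 in EHF IKO). The laminin chains Lama2 and Lama4 averaged 1.92 ± 0.724, 3.04 ± 0.721 and 2.52 ± 1.00 CPM and 6.14 ± 1.07, 6.398 ± 0.624 and 6.01 ± 2.59 CPM, and Postn (periostin) 8.04 ± 2.89, 9.43 ± 1.72 and 9.17 ± 5.23 CPM. Of the untested microfibril genes, Mfap4 had 9, 30 and 28 counts over Control-OIL, Control-TMX and EHF IKO, with every library of the latter groups above every Control-OIL library, and Mfap5 had 10, 20 and 26.

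Gsn, the most abundant marker, was at 169, 202, 204 and 169 CPM in Control-OIL, 222, 233, 230.5 and 209.8 CPM in Control-TMX, and 224, 202.5, 259 and 246.5 CPM in EHF IKO. Control-TMX lay wholly above Control-OIL, and EHF IKO overlapped Control-OIL through replicate 2. On raw library totals Control-TMX overlapped Control-OIL as well. The log2 fold changes were small, at 0.33 ± 0.10 in EHF IKO (adjusted p = 0.161, edgeR's quasi-likelihood test) and 0.27 ± 0.10 in Control-TMX (0.311) against Control-OIL. Vim (vimentin, the intermediate filament of mesenchymal and immune cells) was at 22.1, 15.2, 19.8 and 13.5 CPM in Control-OIL, 21.6, 16.4, 20.3 and 20.6 CPM in Control-TMX, and 20.6, 19.6, 31.1 and 16.5 CPM in EHF IKO. The groups overlapped, and its log2 fold change in EHF IKO against Control-OIL was 0.32 ± 0.19 (adjusted p = 0.576, edgeR).

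The markers varied most among the EHF IKO mice. The median SD of log2(CPM + 0.5) over the 35 tested markers was 0.49 in EHF IKO, 0.37 in Control-OIL and 0.32 in Control-TMX, and EHF IKO had the largest SD for 19 of them. The SD over all genes was not measured, so the wider spread is not shown to be particular to the markers. EHF IKO replicate 4 was the lowest of its group for 22 of the 35 and replicate 3 the highest for 16, and in Control-OIL replicate 3 was the lowest for 16. EHF IKO replicate 4 also had the fewest genes with a count (23588), 21.3% of its counts in mitochondrial genes and 11.2% in Gm26917, and Control-OIL replicate 3 had 11.2% in Gm26917 as well; the part of these in the markers' levels was not tested. Without EHF IKO replicate 4, edgeR called 6 markers higher than in Control-OIL (Sparc, Nid1, Bgn, Des, Cspg4 and Pecam1), and without EHF IKO replicate 3 it called 0. Over all genes the same fits called 4.41% and 0.651%, so that the number of calls moved for the whole table. Replicates 1 and 2 of each group were female and 3 and 4 male by Xist and Y-linked genes. In a test chosen after the data were seen, edgeR called the sex by group interaction for 0 of the 35 markers (smallest adjusted p = 0.102 for EHF IKO against Control-OIL, 0.240 for EHF IKO against Control-TMX and 0.0670 for Control-TMX against Control-OIL). Over all genes it called 0.311%, 0.0699% and 4.5% in that order at an adjusted p under 0.05. At an unadjusted p under 0.05, 5, 1 and 4 of the 35 markers passed. All genes were not counted at that looser threshold for this test, so these numbers cannot be set beside the shares.

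Other genes of the same tissues were taken from lists written beside the members. Of 17 collagen genes, 15 had a higher fitted level in EHF IKO than in Control-OIL, 6 rose (Col15a1, Col5a1, Col4a1, Col3a1, Col1a2 and Col5a2) and 1 fell, Col8a1, at an adjusted p under 0.05 in edgeR's quasi-likelihood test, beside the 0.921% and 0.762% of all genes given above. Col15a1, of basement membranes, was at 4.33, 2.88, 3.44 and 2.86 CPM in Control-OIL, 6.99, 5.56, 6.78 and 5.52 CPM in Control-TMX, and 7.22, 6.76, 7.58 and 8.06 CPM in EHF IKO. As for Nid1, both tamoxifen-treated groups lay wholly above Control-OIL, with log2 fold changes of 1.14 ± 0.19 in EHF IKO (adjusted p = 0.00692, edgeR) and 0.88 ± 0.19 in Control-TMX (0.114). Col8a1, a short-chain collagen, went the other way at 37.2 ± 16.8, 26.2 ± 6.43 and 5.78 ± 2.43 CPM (SD, n = 4) in Control-OIL, Control-TMX and EHF IKO, and was the only collagen called against Control-TMX (log2 fold change -2.19 ± 0.36, adjusted p = 0.0124, edgeR).

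Of 20 further smooth muscle genes, 15 were tested and 1 rose in EHF IKO against Control-OIL, beside 0.921% of all genes called higher. This was Tpm2, a tropomyosin of muscle (log2 fold change 1.23 ± 0.26, adjusted p = 0.0300, edgeR's quasi-likelihood test), which in Control-TMX differed from Control-OIL by 1.17 ± 0.26 (0.129). At an unadjusted p under 0.05, 6 of the 15 were higher in EHF IKO than in Control-OIL and 0 lower, beside 6.85% and 5.07% of all genes. Among 20 further fibroblast genes (13 tested), 8 mural cell genes (1 tested) and 18 endothelial genes (6 tested), edgeR called 0 in any of the 3 comparisons, while 3, 1 and 8 of these 20 tested genes had an unadjusted p under 0.05 in EHF IKO against Control-OIL, EHF IKO against Control-TMX and Control-TMX against Control-OIL, beside 11.9%, 11.9% and 12.9% of all genes in either direction. Of the tested genes of the 3 lists, 11, 1 and 5 had a higher fitted level in EHF IKO than in Control-OIL. The smallest p of each list in that comparison were those of Wnt5a, a Wnt ligand (0.61 ± 0.21, adjusted p = 0.196, edgeR), Mcam (0.98 ± 0.51, 0.487) and Flt4, the receptor of lymphatic endothelium (0.76 ± 0.36, 0.425). Ccl21a, a chemokine of lymphatic endothelium, was at 0 in all libraries.

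Markers of other cell types that such a preparation can hold were set beside these values. The 17 immune cell genes (7 tested) summed to 34.6 to 48.5 CPM in Control-OIL, 27.1 to 37.7 in Control-TMX and 34.5 to 58.1 in EHF IKO, an order that differs from that of the stromal markers, and none was called. The 8 genes of mesothelium and fat summed to 16.1 to 22.4, 13.7 to 26.9 and 14.0 to 32.3 CPM, and the 4 genes of interstitial cells of Cajal, the pacemaker cells of gut muscle, to 435 to 499.5, 384 to 502 and 396 to 571 CPM. Of the last 4, Thbs4 (48.7 CPM per kilobase), Ano1 (35.7) and Kit (7.81) lay above every smooth muscle marker and Etv1 (0.110) below all of them, and Ano1 and Kit are also known from epithelial cells. The 14 genes of enteric glia and neurons summed to 434 to 514, 487 to 631 and 447 to 693 CPM, nearly all of it from Erbb3, which epithelial cells also express. None of these lists had a gene at 0 in all libraries, and edgeR called 0 of their 20 tested genes in each comparison, with 5, 3 and 4 at an unadjusted p under 0.05 in the order given above, beside the same shares of all genes. The 14 epithelial genes summed to 20170 to 32940, 30500 to 35620 and 23420 to 27850 CPM, with Muc2 at 56.1% of the sum. Gene by gene, 12 had a higher and 2 a lower fitted level in EHF IKO than in Control-OIL. The same numbers held for Control-TMX against Control-OIL, and the median log2 fold changes were 0.284 and 0.168. Krt20, a keratin of surface colonocytes, rose in EHF IKO against Control-OIL (log2 fold change 0.71 ± 0.17, adjusted p = 0.0438, edgeR). The part of these cell types in the levels of the stromal markers was not tested.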

How the data were processed

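The deposited files hold counts of reads per gene symbol that the authors made, per the file headers, with featureCounts of Subread 1.6.1 over the exons of Ensembl GRCm38 release 98, with strand setting 0 and without reads that map to several places or lie in more than 1 gene. Alignment with STAR is named in the submitters' processing notes, with no version in the sources used here.

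One edgeR model (version 4.0.16, R 4.3.3) was fitted to the 12 libraries after TMM scaling and edgeR's expression filter for 3 groups, its quasi-likelihood test used robust and legacy settings on 9 residual degrees of freedom, and p-values were adjusted by Benjamini-Hochberg over 15743 genes. The common biological coefficient of variation was 18.3%. On simulated counts of this design (15428 genes), edgeR recovered 74% of genes changed 2-fold and 99% of genes changed 4-fold for EHF IKO against Control-OIL, with 6 false calls. DESeq2 made 28 false calls and limma-voom 5 on the same counts. CPM use TMM-scaled totals. The SE of a log2 fold change was derived from the test, as its absolute value divided by the square root of the quasi-likelihood F. Each library is 1 mouse by its animal number in the labels.

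Named genes were those called, the 3 highest in CPM per role, the 2 largest rises and falls per comparison, and up to 4 per other list by smallest p. The members and all lists were chosen with earlier results of these data known. Alternatives were DESeq2 size factors, other filters, DESeq2 1.42.0, voom in limma 3.58.1, no robust setting, the compared groups alone, a replicate block and a sex term. Further ones were leaving out mitochondrial genes, Gm26917 and the 7 genes high in 1 library, raw totals, and leaving out each library. Promoter sequences are from RefSeq. The 4 choices added after the data were seen are named as such where used. Isoforms were not analysed here.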

Additional observations from a re-analysis of the deposited data

Results flagged for a closer look

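Of 123 groups of 4 libraries examined (each tested marker and each summed role in each group), 4 held a library whose gap to its nearest neighbour passed Dixon's 95% critical value as a share of the group's range, where chance alone flags about 1 in 20. Pdgfra was at 6.148 CPM in Control-OIL replicate 1, above 3 libraries between 5.35 and 5.43 CPM. Timp3 was at 7.405 CPM in Control-OIL replicate 1, below 3 libraries between 10.8 and 11.1 CPM. Mylk was at 31.84 CPM in EHF IKO replicate 4, below 3 libraries between 47.2 and 49.1 CPM, and without that library its log2 fold change against Control-TMX was -0.63 (adjusted p = 0.0409, edgeR). Rgs5 was at 2.074 CPM in Control-OIL replicate 4, above 3 libraries between 0.699 and 0.775 CPM.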

How the results depend on the processing

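The median log2 fold change of the tested markers stayed between 0.40 and 0.69 for EHF IKO against Control-OIL and between 0.37 and 0.67 for Control-TMX against Control-OIL over all alternatives, mice of 1 sex alone (added after the data were seen) included. For EHF IKO against Control-TMX it changed sign around 0, from -0.07 to 0.15. In the order EHF IKO against Control-OIL, EHF IKO against Control-TMX, Control-TMX against Control-OIL, 265, 126 and 13 genes were called, or 1.68%, 0.800% and 0.0826% of those tested. The numbers became 724, 500 and 441 (1.76%, 1.21% and 1.07%) with no filter and 534, 305 and 197 (3.39%, 1.94% and 1.25%) with DESeq2. With no filter 4, 0 and 7 markers were called higher, and 1 was called lower against Control-OIL (Mylk); with DESeq2 6, 0 and 5 were called higher. limma-voom called 1 marker higher against Control-OIL and 0 lower against Control-TMX, with 8 genes (0.0508%) called between the controls. The fit of the compared groups alone called 0.740% of 15129 genes and 1 marker higher against Control-OIL and 0 markers lower against Control-TMX. A sex term gave 38 genes (0.241%) and 1 marker between the controls, and a mean log2 CPM of at least 1 gave 5 genes (0.0357%) there. On raw library totals, 2 markers lay above all Control-OIL libraries in EHF IKO and 2 in Control-TMX, against 6 and 4. In EHF IKO 1 marker lay below all Control-TMX libraries on raw totals, against 3. All genes were not counted on raw totals, so these drops are not shown to be particular to the markers. The causes were not tested.

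With the replicate number as a block (replicate block), 173, 72 and 18 genes were called (1.10%, 0.457% and 0.114%), and 4, 0 and 2 markers were called higher, Fn1 and Cspg4 among them. Numbers 1 and 2 are female and 3 and 4 male mice in every group, and the labels give same-numbered mice no shared source. In all, 5 of 12 same-number pairs had a correlation of their deviations above 0.1 (range -0.41 to 0.41), and 3 of 12 libraries correlated best with their own number.

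Leaving out each library in turn gave 0.650% to 4.41%, 0.312% to 1.00% and 0.0187% to 0.415% of genes called. Markers called higher ranged from 0 to 6 in EHF IKO and from 0 to 1 in Control-TMX against Control-OIL, and those called lower in EHF IKO against Control-TMX from 0 to 1. Most markers had under 10 CPM, and the share of 2-fold changes recovered at that level was not tested.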
